A study of Homo sapiens with 6 samples.

Results

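Decitabine (5-aza-2'-deoxycytidine, DAC) is a cytidine analog that acts only after cells have taken it up and phosphorylated it. The 10 genes described here encode the proteins that carry the drug through this route and that keep the deoxynucleotide pool it competes with. They are SLC29A1, SLC29A2, DCK, CMPK1, CDA, DCTD, SAMHD1, TYMS, RRM1 and RRM2. They were chosen by symbol and role, and are 10 of the 23617 gene symbols in the MDA-MB-231 table. All transcripts listed under each symbol were kept, and their values were summed to a gene level.

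RNA was sequenced from MDA-MB-231 cells, a line derived from human breast cancer, and from HMLER cells, a line made by transforming human mammary cells in vitro. The treated groups received 10 µM DAC every day and were collected at 72 h, and the comparison groups were left untreated. There was 1 untreated and 1 DAC library of MDA-MB-231, and 2 untreated and 2 DAC libraries of HMLER, each made from several pooled extractions of a cell line. A cell line label of the untreated MDA-MB-231 library carries another line number, and its title was followed here. The authors' HMLER table holds 1 merged value per condition and only transcripts that were at least 2-fold higher after DAC, so the comparisons below rest mainly on MDA-MB-231. With 1 library per condition, no difference in MDA-MB-231 has a replicate check, and no test over samples was possible.

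Nucleoside analogs enter cells mainly through equilibrative transporters, which SLC29A1 and SLC29A2 encode. Deoxycytidine kinase (DCK) adds the first phosphate to the drug, the cytidylate kinase CMPK1 the next, and the triphosphate is then incorporated into DNA, where it traps DNA methyltransferases. Cytidine deaminase (CDA) inactivates the nucleoside, and dCMP deaminase (DCTD) acts one step later, on the monophosphate. SAMHD1 cleaves deoxynucleoside triphosphates, including that of decitabine. Ribonucleotide reductase, with the large subunit RRM1 and the small subunit RRM2, and thymidylate synthase (TYMS) supply the natural deoxynucleotides, and RRM2 and TYMS are known for their high expression in dividing cells.

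The promoters of 5 genes are shown because decitabine removes methylation at CpG sites, and because these genes have high or low ratios or a difference in the share of their transcripts. They were picked after their values were seen. Each sequence is the 250 bases before a transcription start annotated by RefSeq (GRCh38.p14 table), read 5′ to 3′ on the strand of the gene. Positions are those of an exact match to hg19, and capitals mark CpG dinucleotides. DNA methylation was not measured in these libraries. TYMS lies at chr18:657403-657652 on the plus strand, RRM2 at chr2:10262616-10262865 on the plus strand, DCTD at chr4:183838540-183838789 on the minus strand, SAMHD1 at chr20:35580112-35580361 on the minus strand and CDA at chr1:20915340-20915589 on the plus strand.
TYMS: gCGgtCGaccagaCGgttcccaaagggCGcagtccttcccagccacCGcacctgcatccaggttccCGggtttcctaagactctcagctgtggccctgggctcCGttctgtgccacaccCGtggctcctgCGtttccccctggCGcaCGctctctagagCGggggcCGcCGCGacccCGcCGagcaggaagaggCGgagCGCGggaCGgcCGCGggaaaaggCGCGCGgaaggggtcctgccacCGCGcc
RRM2: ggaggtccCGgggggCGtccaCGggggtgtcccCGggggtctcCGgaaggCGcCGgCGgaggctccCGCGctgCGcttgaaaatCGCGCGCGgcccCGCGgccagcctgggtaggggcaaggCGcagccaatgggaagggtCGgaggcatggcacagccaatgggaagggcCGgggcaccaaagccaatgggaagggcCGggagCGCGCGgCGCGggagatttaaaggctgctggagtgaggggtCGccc
DCTD: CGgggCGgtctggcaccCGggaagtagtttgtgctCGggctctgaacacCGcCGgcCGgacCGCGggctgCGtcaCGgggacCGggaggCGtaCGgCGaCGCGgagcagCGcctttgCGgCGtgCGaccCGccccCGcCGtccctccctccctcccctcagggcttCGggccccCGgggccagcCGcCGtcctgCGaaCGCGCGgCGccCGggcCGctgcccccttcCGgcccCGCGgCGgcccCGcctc
SAMHD1: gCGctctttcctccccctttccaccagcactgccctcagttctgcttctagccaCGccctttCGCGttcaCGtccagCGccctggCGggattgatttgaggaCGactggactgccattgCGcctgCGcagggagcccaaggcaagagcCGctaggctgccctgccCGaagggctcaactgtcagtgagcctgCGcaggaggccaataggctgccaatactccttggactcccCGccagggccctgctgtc
CDA: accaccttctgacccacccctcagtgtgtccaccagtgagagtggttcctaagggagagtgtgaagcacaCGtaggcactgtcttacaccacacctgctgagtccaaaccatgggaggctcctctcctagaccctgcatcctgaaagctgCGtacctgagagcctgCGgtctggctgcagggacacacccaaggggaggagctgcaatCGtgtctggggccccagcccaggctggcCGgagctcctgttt

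These 5 stretches held 28 CpG in TYMS, 27 in RRM2, 40 in DCTD, 14 in SAMHD1 and 5 in CDA. RefSeq promoters of 250 bases before to 50 bases after the start were found for 9 of the 10 genes, with 12 starts in all. SLC29A2 had no entry. Over that window, CDA had the fewest CpG of the 12 promoters (8, observed/expected ratio 0.280), and the median of all 35116 promoters was 14. The others ranged from 21 in RRM1 to 47 at 1 of the 2 DCTD starts. SAMHD1 had 22 CpG and an observed/expected ratio of 0.687, and TYMS had 34 and a ratio of 0.885.

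Short motifs were searched on both strands of the same windows. The CCAAT box (CCAAT) occurred 3 times in the printed RRM2 promoter, at 123 to 119, 93 to 89 and 66 to 62 bases before the start, where 3.26% of all promoters held 3 or more. The window of the other RRM2 start, not printed, held 1 CCAAT box, 1 GC box and 41 CpG. The CCAAT box occurred 2 times in SAMHD1 and 1 time in RRM1, and 34.6% of all promoters held at least 1. A word of the E2F type (TTTCCCGC, TTTGGCGC, TTTCGCGC or TTTGCCGC), which 3.31% of promoters held, lay 39 to 32 bases before the TYMS start. DCK and CDA also held 1 such word each in the window searched, outside the 250 bases before the start. The GC box (GGGCGG) was found in 45.0% of all promoters and occurred 2 times in the printed DCTD promoter, and the TATA box (TATAAA) was found in 11.5% and in none of the printed stretches. Matches to different motifs did not overlap in the printed stretches.

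The gene levels in untreated MDA-MB-231 cells spanned from 12.7 FPKM for SLC29A2 to 359.5 FPKM for TYMS. FPKM scales the fragments of a transcript to its length and to the mapped fragments of the library, so levels of different genes can be set side by side. The order was TYMS, RRM1 (147.8 FPKM), SLC29A1 (130.7), RRM2 (121.7), CMPK1 (69.9), DCTD (67.1), DCK (27.7), SAMHD1 (26.3), CDA (19.1) and SLC29A2. Cuffdiff gives each transcript a lower and an upper bound in each library. The bounds of the largest transcripts overlapped for all 9 pairs of neighbours in this order. The 3 genes of deoxynucleotide supply and the main transporter thus stood above 100 FPKM, and the deaminase CDA and the minor transporter were lowest. After DAC the order was TYMS, RRM1, SLC29A1, RRM2, CMPK1, SAMHD1, DCTD, CDA, DCK and SLC29A2. SAMHD1 stood in the sixth place in place of the eighth, and DCK in the ninth in place of the seventh. Bounds of neighbours overlapped there too, with the exception of DCK and SLC29A2.

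**Figure D1:**
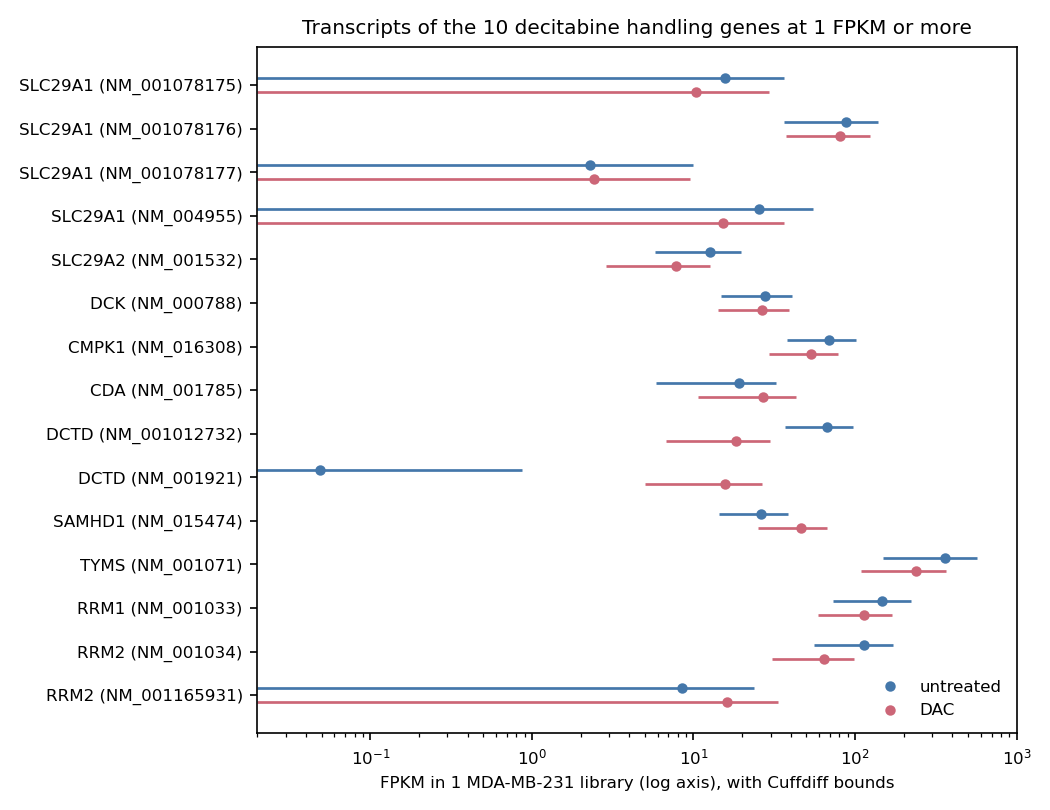
FPKM of the 15 transcripts of the 10 genes that reached 1 FPKM in a library (log axis), with 1 point per MDA-MB-231 library and lines for the Cuffdiff bounds. Lines that reach the left edge have a lower bound of 0, and the bounds of untreated and DAC libraries are apart in the 2 DCTD transcripts.

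All 10 genes reached 1 FPKM in both MDA-MB-231 libraries. With 2-fold as the threshold, 0 of them were higher and 0 lower after DAC, where 10.8% of the 12525 genes at 1 FPKM or more in at least 1 library were higher and 4.82% lower. The 12525 include 128 genes listed at 0 in the untreated library, which count as higher. Of the 11292 genes at 1 FPKM or more in both libraries, as the 10 were, 494 were higher and 466 lower. Shares of genes with a ratio as high or as low are given below over the 12525. DCTD lay closest to the threshold, with a ratio of 0.507. At a threshold of 1.5-fold, chosen after the values were seen, SAMHD1 was higher and DCTD, SLC29A2, TYMS and RRM2 were lower, against 17.0% of all genes higher and 15.5% lower. This count depended on scaling: after division by the median ratio given below, SAMHD1 (1.92) and CDA (1.55) were past 1.5-fold higher and DCTD (0.556) was past 1.5-fold lower, against 20.8% and 10.6% of all genes, and SLC29A2 (0.672), TYMS (0.725) and RRM2 (0.725) were not. The DAC level was below the untreated level for 8 of the 10 genes, and the exceptions were SAMHD1 and CDA. The median DAC/untreated ratio of the 10 genes was 0.771, beside 0.938 for all genes tested. The genes at 1 FPKM or more in both libraries had a median ratio of 0.912, a shift of -0.13 on the log2 scale. Divided by it, 7 of the 10 ratios were below 1, and DCK turned from 0.961 to 1.05. Total FPKM of MDA-MB-231 was lower after DAC as well, at 480455 against 589238 without the drug. Scaling to these totals would raise every ratio, and it was not run. The counts of the 10 genes below 1 and past 2-fold therefore hold only for the scalings given here.

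Low FPKM values of both libraries were whole-number multiples of a unit, taken as 1 read, so the reads of a gene could be inferred. Each gene had between 618 and 21159 inferred reads in a library. The 95% exact (Clopper-Pearson) interval of each ratio covers counting error only, and so is far narrower than the Cuffdiff bounds. By counting alone, the interval of 1 gene, DCK, held 1. In bulk RNA, fewer cells with a transcript and less of it per cell cannot be told apart.

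**Figure D2:**
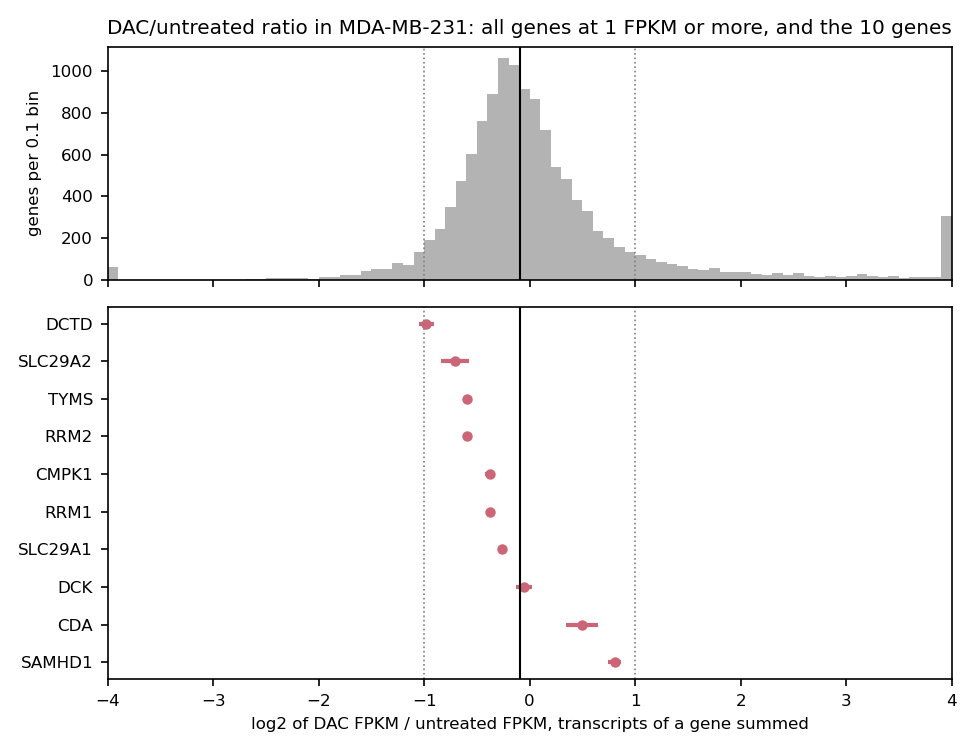
Top, number of genes per 0.1 of the log2 DAC/untreated FPKM ratio in MDA-MB-231, for the 12525 genes at 1 FPKM or more in at least 1 library, with log2 ratios beyond 4 in size placed in the end bins. Bottom, the 10 genes with 95% counting intervals. The solid line is the median of all genes, dotted lines mark 2-fold, and all 10 genes lie between the dotted lines.

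The transporter genes were both lower after DAC. SLC29A1 (hg19, chromosome 6, 44187290 to 44201879, plus strand), which encodes the equilibrative transporter ENT1, was 130.7 FPKM without and 108.9 FPKM with DAC. Its ratio was 0.833 (counting interval 0.810 to 0.856), and 35.8% of all genes had a ratio as low. SLC29A2 (chromosome 11, 66129992 to 66139685, minus strand), which encodes the related ENT2, was 12.7 FPKM (bounds 5.79 to 19.6) and 7.79 FPKM (bounds 2.89 to 12.7). The bounds overlapped, and the ratio was 0.613 (0.559 to 0.671), as low as in 10.8% of genes. The level of SLC29A1 was thus 10.3 times that of SLC29A2 without and 14.0 times with DAC.

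SLC29A1 was listed with 5 transcripts, of which NM_001078176 held most of the gene's FPKM. That transcript was 87.3 FPKM (bounds 36.4 to 138.1) without and 80.8 FPKM (bounds 37.1 to 124.5) with DAC. NM_004955 was 25.5 and 15.3 FPKM, and NM_001078175 was 15.6 and 10.4 FPKM, all with a lower bound of 0. The share of NM_001078176 was 66.8% and 74.2%. NM_001078174 was listed at 0 in both libraries.

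Both kinase genes had ratios below 1. DCK (chromosome 4, 71858255 to 71896631, plus strand), the kinase without which decitabine stays inactive, was 27.7 FPKM (bounds 14.9 to 40.4) without and 26.6 FPKM (bounds 14.2 to 39.0) with DAC. Its ratio of 0.961 (0.912 to 1.01) was the nearest to 1 of the 10 genes. CMPK1 (chromosome 1, 47799462 to 47860538, plus strand) was 69.9 and 53.9 FPKM, a ratio of 0.770 (0.745 to 0.796). Its transcript NM_016308 held 98.9% of the untreated and 99.7% of the DAC level, with overlapping bounds (37.7 to 100.7 and 29.2 to 78.3). The CMPK1 level was 2.53 times that of DCK without and 2.03 times with DAC.

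The deaminase genes stood on opposite sides of 1. CDA (chromosome 1, 20915579 to 20945396, plus strand), which converts the drug to an inactive uridine analog, was 19.1 FPKM (bounds 5.83 to 32.5) without and 27.05 FPKM (bounds 10.7 to 43.4) with DAC. The bounds overlapped, the ratio was 1.41 (1.27 to 1.57), and 19.3% of genes had a ratio as high. DCTD (chromosome 4, 183811213 to 183839089, minus strand) was 67.1 and 34.1 FPKM, a ratio of 0.507 (0.484 to 0.532), as low as in 5.21% of genes. DCTD had the lowest ratio of the 10 genes, and its counting interval spanned the 2-fold threshold. The DCTD level was 3.51 times that of CDA without and 1.26 times with DAC. Relative to DCK, CDA stood at 0.692 and 1.02, and DCTD at 2.43 and 1.28.

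The transcripts of DCTD had ratios on opposite sides of 1. NM_001012732 was 67.1 FPKM (bounds 36.7 to 97.4) without and 18.3 FPKM (bounds 6.74 to 29.9) with DAC, a ratio of 0.273. NM_001921 was 0.0490 FPKM (bounds 0 to 0.874) and 15.8 FPKM (bounds 5.03 to 26.5). The bounds of the libraries did not overlap for either, and they were the 2 of the 19 transcripts of the 10 genes for which this held. Of the 19, 15 reached 1 FPKM in a library, these 2 among them. Among the 17744 transcripts at 1 FPKM or more in a library, 1.01% had DAC bounds above the untreated bounds and 0.586% had them below. NM_001921 held 0.0731% of the gene's untreated level and 46.3% of its DAC level. The listed lengths of these transcripts differ by 23 bases, and how many reads tell them apart was not determined. DCTD has 2 annotated starts in RefSeq, 225 bases apart, and coding forms of 178 and 189 codons in GENCODE. Which start each listed transcript uses was not determined.

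SAMHD1 (chromosome 20, 35518632 to 35580296, minus strand), the triphosphohydrolase of deoxynucleotides, had the highest ratio of the 10 genes. It was 26.3 FPKM (bounds 14.3 to 38.2) without and 46.0 FPKM (bounds 25.2 to 66.8) with DAC, from 3341 and 5815 inferred reads. The bounds overlapped. The ratio was 1.75 (1.68 to 1.83), as high as in 13.0% of genes, and 1.92 after division by the median ratio. SAMHD1 overlaps TLDC2 on the other strand, and strand-specific counting is not stated. Other-strand overlaps also hold for SLC29A2 (B4GAT1-DT), CMPK1 (LINC01389), TYMS (ENOSF1, TYMSOS), RRM1 (RRM1-AS1) and RRM2 (MIR4261, SNORA2). DCK overlaps MOB1B on its own strand. The SAMHD1 level was 0.95 times that of DCK without and 1.73 times with DAC, and 0.216 and 0.572 times that of RRM2.

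The genes that supply deoxynucleotides were lower after DAC, with the largest differences in FPKM of the 10 genes. TYMS (chromosome 18, 657653 to 673578, plus strand), which makes dTMP from dUMP, was 359.5 FPKM (bounds 149.6 to 569.5) without and 237.8 FPKM (bounds 108.6 to 367.0) with DAC. Its ratio was 0.661 (0.647 to 0.676), as low as in 15.0% of genes, and the bounds overlapped. ENOSF1, which overlaps TYMS on the other strand, was 12.2 and 8.77 FPKM, far under the TYMS level. RRM1 (chromosome 11, 4115937 to 4160162, plus strand), the large subunit, was 147.8 FPKM (bounds 72.7 to 222.8) and 113.9 FPKM (bounds 59.1 to 168.8), a ratio of 0.771 (0.754 to 0.788). RRM2 (chromosome 2, 10260825 to 10351851, plus strand), the subunit that carries the radical, was 121.7 and 80.5 FPKM, a ratio of 0.662 (0.646 to 0.678). The level of TYMS was 2.96 times that of RRM2 without and 2.95 times with DAC, while RRM1 was 1.21 and 1.42 times that of RRM2. GENCODE names 3 pseudogenes after RRM2 and 2 after TYMS, whose reads the counting could mix with those of the parent genes.

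RRM2 was, of the 10 genes, the 1 with a row in the HMLER table, where 10.9% of the genes at 1 FPKM or more in MDA-MB-231 had at least 1. The listed transcript was NM_001165931, and the authors' merged FPKM was 3.98 without and 8.20 with DAC, a ratio of 2.06. The lowest ratio of any transcript in that table was 2.0, so this row is close to its limit. In MDA-MB-231 the same transcript was 8.44 FPKM (bounds 0 to 23.8) without and 16.03 FPKM (bounds 0 to 33.4) with DAC, a ratio of 1.90 with overlapping bounds. The other RRM2 transcript, NM_001034, was lower after DAC in MDA-MB-231, with 113.2 FPKM (bounds 55.6 to 170.9) and 64.5 FPKM (bounds 30.6 to 98.3), which also overlapped. NM_001165931 made up 6.94% of the RRM2 level without and 19.9% with DAC. NM_001034 and the other 9 genes have no row in the HMLER table, so their HMLER levels were not analysed here.

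The RRM2 transcripts are known to differ at the start of the gene. NM_001165931 is listed as 168 bases longer, and RefSeq has starts at 10262695 and 10262866 on chromosome 2, 171 bases apart. The longer form is known to encode the subunit with an extended amino terminus, and GENCODE has RRM2 coding forms of 389 and 449 codons. The bases between the starts are the last 171 of the printed RRM2 promoter and hold its 3 CCAAT boxes.

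**Figure D3:**
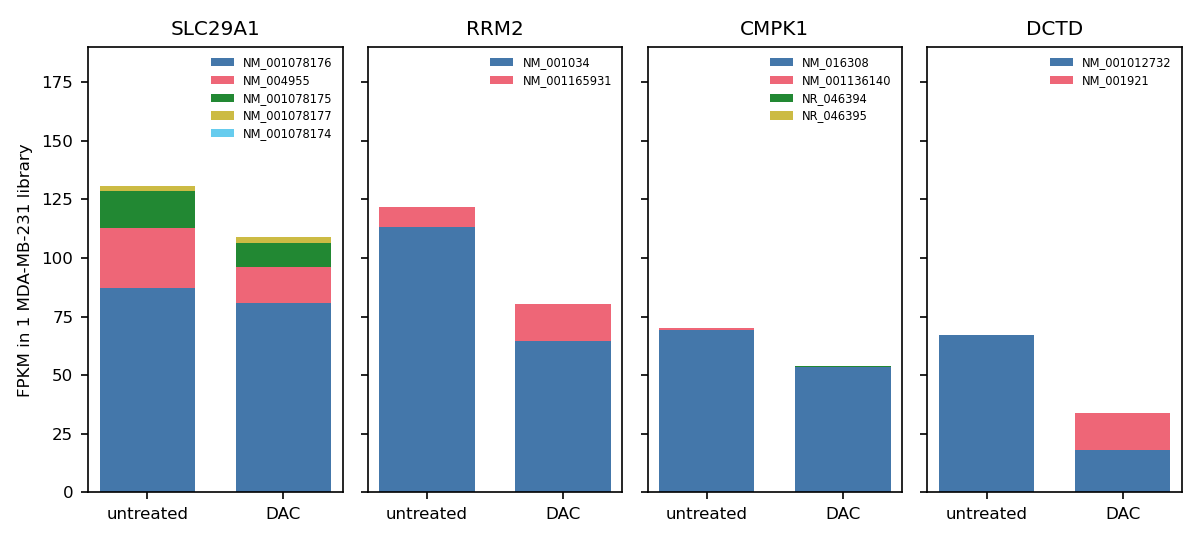
FPKM of each listed transcript of the 4 genes with more than 1, stacked, in 1 untreated and 1 DAC library of MDA-MB-231 (bars start at 0, no error bars). In DCTD a transcript at 0.0490 FPKM without DAC makes up 46.3% of the DAC bar, and in RRM2 the share of NM_001165931 goes from 6.94% to 19.9%.

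Genes of DNA synthesis were set beside TYMS, RRM1 and RRM2, because deoxynucleotides are made mostly in dividing cells. All 33 genes of an S-phase list, among them the MCM helicase subunits, PCNA and MKI67, reached 1 FPKM. Their median DAC/untreated ratio was 0.901, beside 0.938 for all genes, and 22 of the 33 were below 1. Past 2-fold, 0 were higher and 0 lower, beside 10.8% and 4.82% of all genes. After division by the median ratio, 17 of the 33 were below 1. At 1.5-fold, 1 was higher and 5 were lower, beside 17.0% and 15.5% of all genes. MKI67, a marker of cycling cells, was 96.5 FPKM without and 59.8 FPKM with DAC, and PCNA was 139.4 and 110.0 FPKM. The ratios of TYMS and RRM2 were below the list's median and within its range of 0.541 to 1.73. The part of cell division in the lower levels was not tested.

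Of the other genes of nucleotide metabolism and transport, 65 were measured and 54 reached 1 FPKM in a library. Past 2-fold, 2 of these 54 (3.70%) were higher and 5 (9.26%) were lower, beside 10.8% and 4.82% of all genes. The median ratio was 0.904, and 35 of the 54 were below 1, or 28 after division by the median ratio. The higher ones were transporters. SLC29A4, a further equilibrative transporter, was 1.49 and 3.61 FPKM, and the efflux pump ABCG2 was 0.494 and 2.38 FPKM. The bounds of the largest transcript overlapped for both, and with a pseudocount of 1 the ratio of SLC29A4 was 1.85 and that of ABCG2 2.26. The concentrative transporters did not reach 1 FPKM, with SLC28A1 and SLC28A2 listed at 0 in untreated cells and SLC28A3 at 0.157 FPKM. SLC29A3 was 2.24 and 3.33 FPKM.

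Those more than 2-fold lower were NT5E, NT5M, ADK, DHODH and DPYD. NT5E, the cell surface enzyme that makes adenosine from AMP, was 327.7 and 119.1 FPKM, and DPYD, the first enzyme of uracil breakdown, was 32.7 and 11.8 FPKM. DHODH, a mitochondrial enzyme of pyrimidine synthesis, was 10.9 and 3.98 FPKM. Adenosine kinase (ADK) was 60.7 and 30.3 FPKM, and the nucleotidase NT5M was 1.10 and 0.495 FPKM. For DPYD the bounds of the largest transcript did not overlap between the libraries, and for the other 4 they did. ADK was no longer past 2-fold with a pseudocount of 1 (0.508) or after division by the median ratio (0.547), and NT5M was not with the pseudocount (0.711). By role, the median ratio ranged from 0.664 in pyrimidine synthesis to 1.44 in nucleoside breakdown and salvage (7 genes) and 1.95 in the other nucleoside transporters (2 genes). The 5 genes of pyrimidine synthesis (CAD, DHODH, UMPS, CTPS1 and CTPS2) were all below 1, but CTPS2 (0.945) was at 1.04 after division by the median ratio. CAD, which starts the pathway, was 43.6 and 25.8 FPKM.

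Isoenzymes of the 10 genes and enzymes of neighbouring steps had ratios on both sides of 1. Thymidine kinase TK1 was 176.9 and 177.1 FPKM, and its mitochondrial counterpart TK2 was 3.14 and 1.64 FPKM. DGUOK, the mitochondrial kinase of purine deoxynucleosides, was 118.8 and 94.3 FPKM. RRM2B, the p53-inducible reductase subunit, was 12.6 and 14.9 FPKM in MDA-MB-231, summed over 3 transcripts. Its transcript NM_015713 was 9.75 and 11.7 FPKM in MDA-MB-231, and 6.81 and 28.7 FPKM in HMLER by the authors' merged values. DUT, which removes dUTP, was 64.7 and 81.2 FPKM. The nucleotidase NT5C2 was 26.4 and 13.8 FPKM and NT5C3 was 19.9 and 20.7 FPKM. CMPK2, the mitochondrial isoenzyme of CMPK1, was listed at 0 and at 0.0121 FPKM. In the HMLER table, 4 of the other pathway genes (7.41% of the 54, beside 10.9% of all genes) had a row: RRM2B, SLC29A3, UPP1 and ITPA. UPP1, a uridine phosphorylase, had 2 transcripts there, at 16.4 and 36.98 FPKM and at 2.18 and 7.28 FPKM. In MDA-MB-231 the same transcripts were 21.3 and 26.8 FPKM, and 5.00 and 11.1 FPKM.

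**Figure D4:**
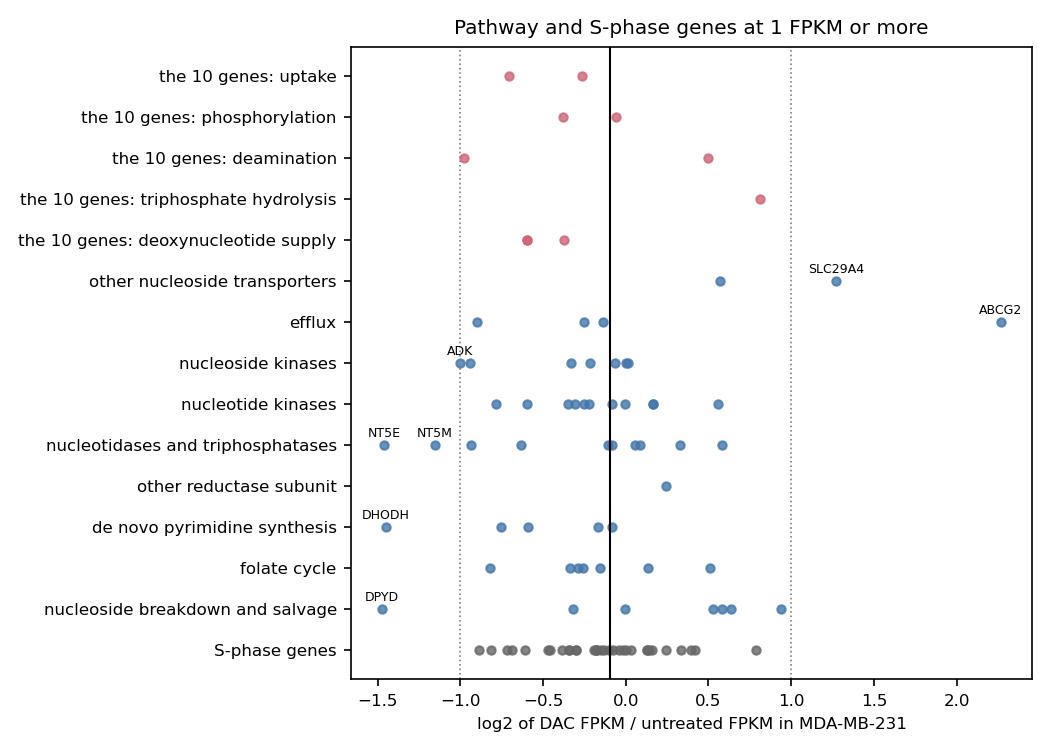
Each point is 1 gene at 1 FPKM or more, placed at the log2 DAC/untreated FPKM ratio in MDA-MB-231 (transcripts summed, no replicate error) and grouped by role. The 10 genes are red, other pathway genes blue and S-phase genes grey. Dotted lines mark 2-fold, the solid line is the median of all genes, and the 7 genes named lie beyond the dotted lines.

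The identity of the MDA-MB-231 libraries was checked on markers. Of 8 mammary epithelial markers in untreated cells, KRT8 and KRT18 were 154.4 and 173.5 FPKM, EPCAM 7.90, KRT7 6.58 and KRT5 0.0112. CDH1, KRT14 and TP63 were listed at 0 there, as were the receptors ESR1 and PGR, while ERBB2 was 11.8 FPKM. KRT7 was 33.8 FPKM after DAC, a ratio of 5.14 with bounds that did not overlap. Of 5 mesenchymal markers, VIM (3066 and 1134 FPKM) and ZEB1 (31.1 and 15.2) were more than 2-fold lower after DAC, and FN1 (39.8 and 111.3), SPARC (2.09 and 11.3) and CDH2 (0.0902 and 1.06) more than 2-fold higher. The ratio of ZEB1 was 0.538, short of 2-fold, after division by the median ratio. Of 4 fibroblast markers, 2 were more than 2-fold higher after DAC, beside 10.8% of all genes. The 4 summed to 1.11 and 17.1 FPKM. COL1A1 was 0.853 and 15.6 FPKM, PDGFRB 0.217 and 1.44, LUM 0.0123 and 0.0370, and DCN 0.0234 FPKM and listed at 0. As for KRT7, the bounds of the largest transcript did not overlap for SPARC and COL1A1. The HMLER table listed the basal keratins KRT5 at 9.85 and 37.1 FPKM and KRT14 at 11.6 and 52.2 FPKM, and EPCAM at 0.450 and 2.17 FPKM. Leucocyte markers summed to 0.0781 and 0.905 FPKM and endothelial markers to 0.0969 and 0.432 FPKM. The part of these markers in the levels of the 10 genes was not tested.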

How the data were processed

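RNA-seq of polyadenylated RNA was available as 2 tables for 6 libraries of 2 cell lines. Values deposited by the authors are FPKM per RefSeq transcript, with hg19, TopHat2 and Cuffdiff named in the submitters' processing notes. Differential analysis was run on the Galaxy server. Versions, library scaling and use of strand are not given in the sources used here. Columns of the authors' comparisons (fold changes in both tables, and test statistics, p-values, q-values and a significance mark for HMLER) were left out, and 0 other columns of sample values stayed unused.

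The 10 genes and all gene lists were chosen with earlier results of these data known. Transcripts of a symbol were summed, a gene entered at 1 FPKM or more in at least 1 library, and ratios were taken without a pseudocount. The genes named are the 10, other pathway genes past 2-fold or in the HMLER table, and set isoenzymes, of which 1 is not reported here; MKI67, PCNA, CAD and ENOSF1 were added after their values were seen. What 1 read is worth was found in transcripts over 2000 bases that are alone in their symbol and locus: of 818 low values of the untreated and 883 of the DAC library, 100% lay within 0.1 of a whole read, with an effective length of the length minus 200 bases. This unit was 0.0235 and 0.0237 FPKM for 1 read per kilobase of effective length. Calls and the read unit were tested on simulated data. The planted changes were well beyond 2-fold and the noise was counting error only, so calls near the thresholds were not tested. Gene positions are from GENCODE lifted to GRCh37, the assembly of hg19. Software was matplotlib 3.10.9, scipy 1.17.1, pandas 2.3.3, numpy 2.4.6 and Python 3.11.15.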

Additional observations from a re-analysis of the deposited data

How the results depend on the processing

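No paired analysis was possible because HMLER has 1 merged value for each condition and MDA-MB-231 a single library, so leaving out a replicate was not run either. Ratios of all 10 genes in HMLER were not run, because that table holds no transcript that was lower. Over all genes, the count past 2-fold higher (1350) became 5193 with no minimum level, 494 with 1 FPKM in both libraries, 465 with 5 FPKM in at least 1 library and 863 with a pseudocount of 1. The count lower (604) became 1080, 466, 453 and 410 under the same settings, in that order. With the largest transcript, 1428 genes were higher and 726 lower. After division by the median ratio, 1519 were higher and 446 lower. At 1.5-fold, which was added with the data in view, the counts were 2124 higher and 1944 lower, and of the 10 genes 1 was higher and 4 were lower in place of 0 and 0. With division by the median ratio as well, also added then, they were 2601 and 1324 over all genes, and 2 higher (SAMHD1, CDA) and 1 lower (DCTD) of the 10. With the largest transcript in place of the sum, 1 of the 10 genes (DCTD, log2 ratio -1.87) was more than 2-fold lower, and RRM2 was no longer counted in the HMLER table, which left 0. The cause of these differences was not tested beyond the change of setting itself. The median log2 ratio of the 10 genes (-0.38) was -0.24 after division by the median ratio, which by construction adds the same amount to each gene. Of 80 values of single genes under the alternatives, 79 kept their sign and 68 lay within the counting interval. Much of this was fixed in advance. The minimum levels cannot change the ratio of a gene that passes them, and keeping only transcripts with status OK changed no value. A gene with 1 transcript cannot change with the largest transcript either. After division by the median ratio, CDA alone stayed within its counting interval. The exception in sign was DCK after that division (log2 ratio 0.08).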
